A study of Mus musculus with 7 samples.

Results

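Reactive astrocyte and complement genes were read in bulk RNA of mouse suprachiasmatic nucleus (SCN), the hypothalamic seat of the circadian clock and a target of retinal axons. The set held 33 named genes of the 55487 genes in the count table: astrocyte filament and pan-reactive genes, complement components and inhibitors without C1q, and cytokine receptor and STAT3 genes. All 33 were found by symbol, and 27 passed a filter on low counts that kept 14020 genes. The advanced glaucoma group was 3 libraries of DBA/2J mice, which carry a spontaneous Gpnmb mutation and develop raised eye pressure with retinal damage. The control group was 4 libraries of DBA/2J-Gpnmb+SjJ mice, which share that strain background and lack the mutation. The genotype label reads WT for both groups, so the mutation is taken from the design text. All mice were kept on a light and dark cycle, and the sources used here give no age, sex or hour of collection. The microdissection came from thick hypothalamic sections, so tissue beside the SCN could be included. Replicates are taken as separate mice from the design text, and p-values measure the spread between these libraries only.

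Astrocytes respond to injury or inflammation by raising intermediate filament proteins such as GFAP and vimentin, secreted protease inhibitors and complement proteins. Cytokines that signal through the receptor subunit IL6ST and the transcription factor STAT3 are known drivers of this reactive state. The complement cascade can start at C1, which acts through C4 and C2, or at alternative-pathway proteins. These routes converge on C3, and membrane inhibitors hold the cascade back on host cells. Glaucoma is known for reactive astrocytes in the optic nerve and retina, and the optic nerve axons that reach the SCN are among those it damages.

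Library depth was 5118764, 4655862 and 3585907 counts in advanced glaucoma (scn_glauc_152, scn_glauc_153, scn_glauc_154), against 2174456, 3290823, 4019857 and 5285093 counts in control (scn_cont_565, scn_cont_567, scn_cont_568, scn_cont_570). Every list of values per library below follows that order. Depth did not differ between the groups beyond their spread (exact permutation p = 0.429, two-sided, n = 3 and n = 4, smallest possible 0.0286). Library scn_cont_565 was the shallowest, had the highest mitochondrial share at 19.5% against 12.6% to 16.5% in the others, and lay alone at -50.8 on the first principal component, where the others lay between -1.61 and 20.4. Gpnmb had 0 to 1 counts per advanced glaucoma library and 0 to 2 counts per control library, which is too few to check the labels. The SCN marker Vip averaged 2.69 ± 1.38 CPM in advanced glaucoma and 112 ± 37.7 CPM in control (SD, n = 3 and n = 4). Of 14 SCN markers, 10 passed and were lower, as were 0.378% of all genes tested, and 0 were higher (edgeR). The summed level of the 14 markers overlapped between the groups. It was 2356, 3534 and 469 CPM in advanced glaucoma, against 2075, 7407, 3969 and 2869 CPM in control. The part of SCN neurons in the results below was not tested. CPM here is the usual library-scaled count after TMM scaling. In bulk tissue, fewer cells of a type and less RNA per cell cannot be told apart.

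No reactive astrocyte or complement gene passed as higher in the SCN of advanced glaucoma mice. The largest estimates were in the lower direction, at 3.49-fold for Gfap, 3.32-fold for Aspg and 2.61-fold for C4b, and the largest in the higher direction was 1.94-fold for Cd44. Of the 27 members tested, 1 passed at an adjusted p under 0.05 over all 14020 genes, Aspg, and it fell (edgeR quasi-likelihood test, Benjamini-Hochberg; 0.471% of all genes tested passed). In the higher direction 0 members passed by edgeR, where 0.0927% of all genes did. At an unadjusted p under 0.05 there were 9 lower and 2 higher members (lower: Gfap, Aspg, Osmr, C4b, C3, Fbln5, Srgn, Emp1 and Tm4sf1; higher: Cd44 and Serpina3n), where 4.15% and 4.05% of all genes tested lay. For 5 members the advanced glaucoma and control libraries did not overlap: Gfap, Osmr, C3, Fbln5 and Srgn were all lower in advanced glaucoma, against 3.91% of all genes tested in that direction. The median log2 fold change was -0.24 over the 27 members and -0.0071 over all genes tested. These counts describe genes that were chosen with earlier results of these data known.

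**Figure D1:**
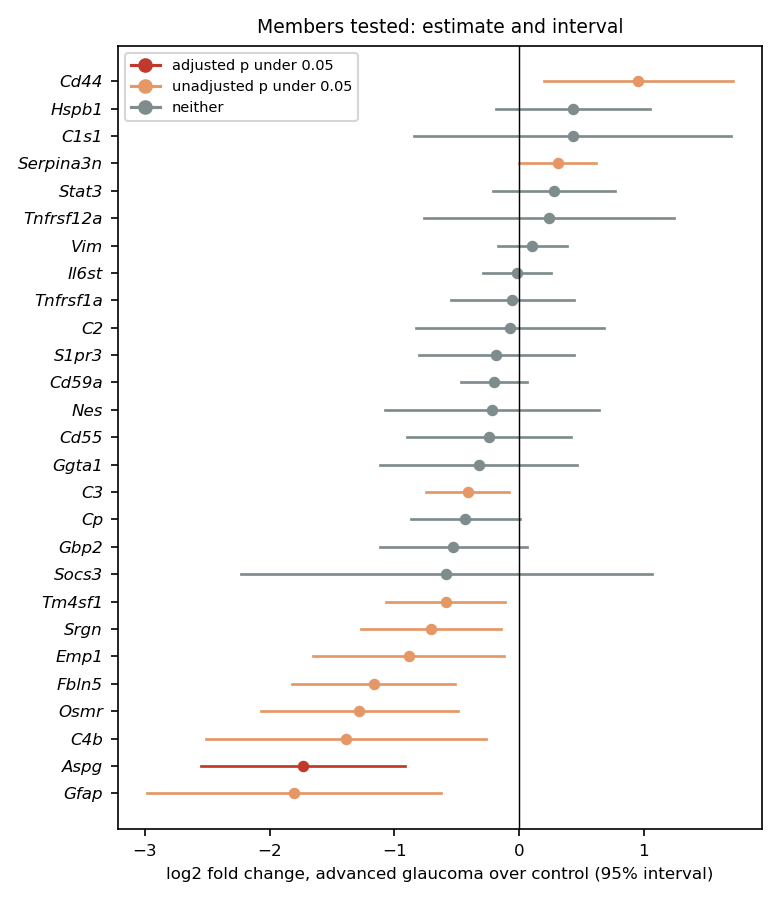
Log2 fold change of advanced glaucoma over control (x axis) with its 95% interval for each of the 27 members tested (y axis), by edgeR. Aspg at -1.73 alone passed over all genes. The intervals of Gfap, C4b, Osmr, Fbln5, Emp1, Srgn, Tm4sf1 and C3 also stay below 0, and those of Cd44 and Serpina3n stay above 0.

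Gfap, which encodes a filament protein that reactive astrocytes raise, lay far lower in advanced glaucoma than in most control libraries. The gene (ENSMUSG00000020932, chromosome 11, 102887336 to 102900912, minus strand, mm10) had 91.8, 117 and 90.8 CPM in the advanced glaucoma libraries, against 137, 358, 399.5 and 491 CPM in the control libraries. Each advanced glaucoma library was below each control library, and scn_cont_565 was the control library nearest to them. The means were 99.95 ± 14.9 CPM in advanced glaucoma and 346 ± 151 CPM in control (SD, n = 3 and n = 4). The log2 fold change was -1.81 with an SE of 0.464 and a 95% interval of -2.98 to -0.63, which did not pass over all genes (adjusted p = 0.366 by edgeR). Without scn_cont_565 the fold was 4.16-fold lower and the call was made (adjusted p = 8.45e-09 by edgeR). It was the lowest control library for Gfap, so leaving it out had to raise the control mean. The control SD was 151 CPM with it and 68.0 CPM without it. Gfap also passed with DESeq2 (adjusted p = 0.0153) and with limma-voom sample weights (adjusted p = 0.00175), in a range of 8.45e-09 to 0.773 over 13 alternatives.

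The other filament genes did not share this difference. Vim, the vimentin filament of reactive astrocytes, tanycytes and vessels, had 159, 131 and 199.7 CPM in advanced glaucoma, against 119, 171, 161 and 151 CPM in control. The groups overlapped, and the 95% interval of the log2 fold change, -0.17 to 0.39, leaves out a change of the size seen for Gfap. Nes, the nestin filament of progenitors and tanycytes, had 3.74, 3.66 and 9.42 CPM in advanced glaucoma, against 2.98, 9.49, 8.18 and 4.32 CPM in control, with full overlap (95% interval -1.07 to 0.64).

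Aspg, which encodes an asparaginase and is a member of published pan-reactive astrocyte lists, was the member that fell. The gene (ENSMUSG00000037686, chromosome 12, 112106679 to 112127559, plus strand, mm10) had 2.96, 4.31 and 3.32 CPM in advanced glaucoma, against 2.98, 14.4, 11.2 and 16.4 CPM in control. The value in scn_cont_565 lay within the advanced glaucoma range, and the other control libraries lay well above it. These levels rested on 15, 20 and 12 counts in advanced glaucoma and on 6, 47, 45 and 91 counts in control. Aspg fell 3.32-fold (log2 fold change -1.73 with an SE of 0.395 and a 95% interval of -2.55 to -0.91; edgeR adjusted p = 0.0461). The call rests near the threshold: it was lost with plain library size (adjusted p = 0.0606), with limma-voom weights (0.115) and without any library other than scn_cont_565 (0.0738 to 0.249 by edgeR), and without scn_cont_565 it was firmer (8.02e-04). Over 12 alternatives the adjusted p ran from 2.25e-04 to 0.249.

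Osmr, the receptor subunit for oncostatin M, had 4.53, 1.94 and 2.49 CPM in advanced glaucoma, against 7.94, 7.96, 5.95 and 7.92 CPM in control. Here scn_cont_565 sat with the other control libraries and every advanced glaucoma library was lower. The log2 fold change was -1.28 (SE 0.383, adjusted p = 0.189 by edgeR), and Osmr passed under none of 12 alternatives (0.116 to 0.545). Its ligand gene Osm had 0 counts in each advanced glaucoma library and 0 to 2 counts per control library.

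Windows of the annotated promoters of Gfap, Aspg and Osmr are shown because these are the members of astrocyte reactivity with the largest lower estimates and an entry in the RefSeq promoter table (build GRCm38.p6), where 30 of the 33 members matched. Each runs from 250 bases before to 50 bases after the annotated start, 5′ to 3′ on the gene's strand, and capitals mark motif matches.
Gfap: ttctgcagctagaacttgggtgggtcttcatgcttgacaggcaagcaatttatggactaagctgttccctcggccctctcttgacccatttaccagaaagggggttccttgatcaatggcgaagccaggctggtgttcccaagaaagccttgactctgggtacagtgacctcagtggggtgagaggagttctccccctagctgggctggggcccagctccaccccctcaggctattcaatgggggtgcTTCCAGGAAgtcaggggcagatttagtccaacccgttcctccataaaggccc
Aspg: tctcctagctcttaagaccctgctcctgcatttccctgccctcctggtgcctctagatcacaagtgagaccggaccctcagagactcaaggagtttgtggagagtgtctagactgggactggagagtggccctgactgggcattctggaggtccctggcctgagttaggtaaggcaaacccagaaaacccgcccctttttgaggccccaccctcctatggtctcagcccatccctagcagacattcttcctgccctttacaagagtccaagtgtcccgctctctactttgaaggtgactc
Osmr: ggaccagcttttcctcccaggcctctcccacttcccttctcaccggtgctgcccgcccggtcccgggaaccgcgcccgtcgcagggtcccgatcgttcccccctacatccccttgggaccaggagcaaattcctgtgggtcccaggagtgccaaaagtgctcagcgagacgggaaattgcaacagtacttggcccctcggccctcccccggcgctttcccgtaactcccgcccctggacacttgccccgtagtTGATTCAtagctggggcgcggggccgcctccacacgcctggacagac
The windows are chr11:102897151-102897450 on the minus strand, chr12:112106433-112106732 on the plus strand and chr15:6874264-6874563 on the minus strand. Both strands were searched for TTCNNNGAA (the STAT element), TGANTCA (the AP-1 element), an NF-κB element and the interferon-stimulated response element. The Gfap window held TTCCAGGAA, a STAT match at bases 249 to 257 that spans the annotated start, and the Osmr window held an AP-1 match just after it. The Aspg window held none of the 4 motifs. STAT letters occurred in 8.30% of 32851 promoter windows of the same length and in windows of 6 of the 30 matched members (Gfap, Socs3, Steap4, Emp1, C1ra and Tnfrsf1a). The interferon-stimulated letters occurred in 3.44% of windows and in 6 members (Gbp2, Cxcl10, Cd59a, Fbln5, Srgn and Tm4sf1), the AP-1 letters in 7.81% and in 5 members, and the NF-κB letters in 0.155% and in 0 members. The 30 matched members had 35 windows, so some members had more than 1 window in which a match could occur. The percentages are shares of windows and the member counts are of genes, so they are not directly comparable. In Emp1 a STAT match and an AP-1 match share bases.

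Several pan-reactive genes had positive or small estimates, and none of them passed. Serpina3n, a secreted serine protease inhibitor that marks reactive astrocytes, had 94.8, 87.0 and 98.6 CPM in advanced glaucoma, against 49.1, 95.5, 80.1 and 72.8 CPM in control. The groups overlapped through scn_cont_567, and scn_cont_565 was the lowest library (log2 fold change 0.31, SE 0.147, unadjusted p = 0.0481, adjusted p = 0.602 by edgeR). Cd44, the hyaluronan receptor, had 14.0, 4.95 and 10.8 CPM in advanced glaucoma, against 3.97, 7.35, 6.196 and 3.06 CPM in control, with scn_glauc_152 and scn_glauc_154 above every control library and scn_glauc_153 among them. Its log2 fold change was 0.96 (SE 0.368, adjusted p = 0.428 by edgeR). S1pr3, a receptor for sphingosine 1-phosphate, Hspb1, a small heat shock protein, and Cp, the ferroxidase ceruloplasmin, had log2 fold changes of -0.18, 0.43 and -0.43 with intervals that include 0. Hspb1 was highest in scn_glauc_152, at 21.3 CPM, where the other libraries had 7.32 to 13.4 CPM.

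Vim, Nes and Cd44 are also genes of tanycytes, the radial glia-like cells of the third ventricle. Of 16 tanycyte and ependyma markers, all were tested and 0 passed by edgeR. At an unadjusted p under 0.05 there were 1 lower and 2 higher, where 4.15% and 4.05% of all genes tested lay. The tanycyte transcription factor gene Rax had 22.3, 7.76 and 17.2 CPM in advanced glaucoma, against 3.47, 11.9, 8.18 and 1.26 CPM in control. As with Cd44, scn_glauc_152 and scn_glauc_154 were the highest libraries for Rax, which was picked after its values were seen, as was Col23a1. The list as a whole did not follow this order: 7 of the 16 lay below 0 in log2 fold change, the median was 0.12, and no marker was at 0. The summed level was 1547, 1217 and 1732 CPM in advanced glaucoma, against 1576, 1616, 1447 and 1336 CPM in control, with scn_glauc_152 below scn_cont_565 and scn_cont_567. The part of tanycytes in the levels of Vim, Nes and Cd44 was not tested.

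**Figure D2:**
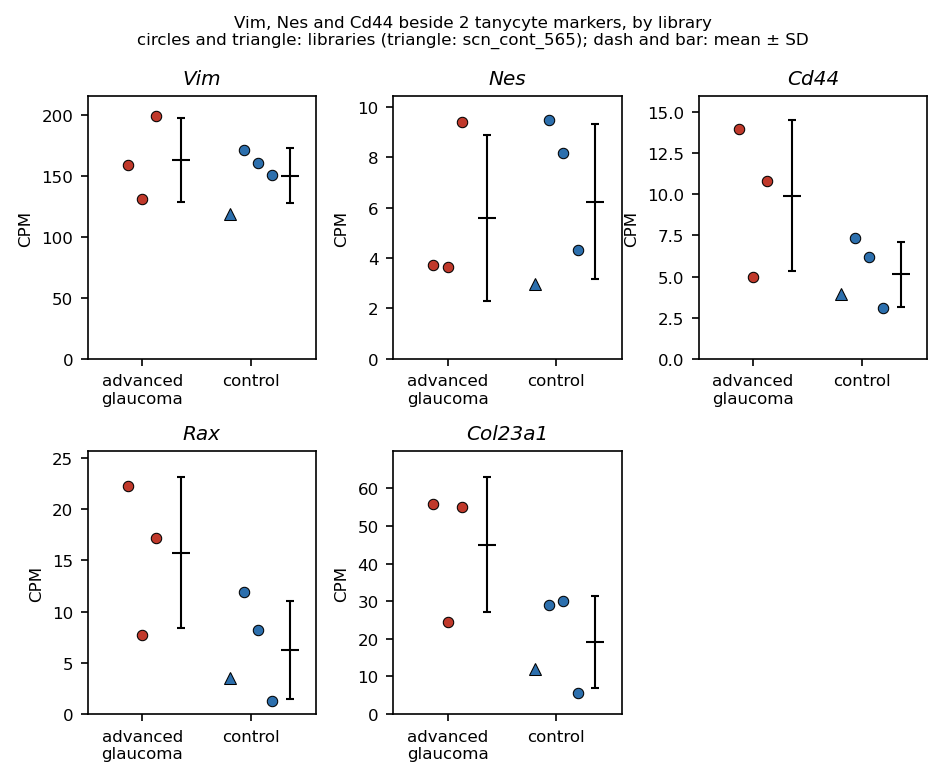
CPM of Vim, Nes and Cd44 and of the tanycyte markers Rax and Col23a1 (y axes) in each advanced glaucoma and control library, with mean ± SD (dash and bar) and scn_cont_565 as a triangle. Library scn_glauc_153 is the lowest of the 3 advanced glaucoma libraries in each panel.

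The pan-reactive genes that failed the filter had few counts, at most 27 in any library. Lcn2, a secreted lipocalin that is among the most strongly induced reactive genes, had 3, 9 and 9 counts in advanced glaucoma, against 1, 27, 8 and 8 counts in control. Steap4, a metalloreductase, had 4 to 9 counts per library in advanced glaucoma and 2 to 8 in control, and Timp1, a metalloproteinase inhibitor, had 5 to 7 and 4 to 10. Cxcl10, an interferon-induced chemokine, had 10, 2 and 0 counts in advanced glaucoma, against 0, 5, 18 and 6 counts in control. With no filter on low counts, none of these genes passed (adjusted p of 0.775 to 0.871 by edgeR). The size of difference that such counts could show was not tested. On the other strand, Timp1 overlaps Syn1, Cp overlaps Hps3, Cxcl10 overlaps Art3 and C2 overlaps Zbtb12. Over all libraries Syn1 had 8879 counts against 47 for Timp1, and Hps3 had 301 against 531 for Cp. Art3 had 57 counts against 41 for Cxcl10, and Zbtb12 had 68 against 140 for C2. Non-coding genes there had 41 counts against 281 for S1pr3 and 24 against 194 for Cd55. No source used here says whether counting used strand, so these values are uncertain.

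Among complement components, C4b had the largest lower estimate. C4b, the component that deposits on targets after C1 activation and that astrocytes make (ENSMUSG00000073418, chromosome 17, 34728380 to 34743882, minus strand, mm10), had 47.9, 39.2 and 51.2 CPM in advanced glaucoma, against 43.2, 129, 145 and 151.6 CPM in control. Library scn_cont_565 lay within the advanced glaucoma range, and the other control libraries lay far above it. The log2 fold change was -1.39 with an SE of 0.444 and a 95% interval of -2.51 to -0.26 (edgeR adjusted p = 0.492). Without scn_cont_565, C4b was 3.09-fold lower and passed (adjusted p = 9.99e-10 by edgeR), and it passed with limma-voom weights (adjusted p = 0.0199) but not with DESeq2 (0.241), in a range of 9.99e-10 to 0.853 over 13 alternatives. As scn_cont_565 was the lowest control library for C4b, leaving it out had to raise the control mean. The control SD was 50.3 CPM with it and 11.4 CPM without it. The C4b and C4a transcripts are 97.6% identical over their last 500 bases, where these libraries are read, so counts could be split between them. C4a had 29 counts in all libraries, against 2548 for C4b.

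C3, on which all complement routes converge, had 27.0, 22.4 and 25.8 CPM in advanced glaucoma, against 32.8, 29.7, 34.5 and 35.8 CPM in control. Every advanced glaucoma library was below every control library, scn_cont_565 included, but the difference was small (1.33-fold lower, log2 fold change -0.41, SE 0.161, unadjusted p = 0.0169, adjusted p = 0.438 by edgeR). C3 passed under none of 13 alternatives (0.319 to 0.738). C2, the protease partner of C4, had 5.52, 5.39 and 3.32 CPM in advanced glaucoma, against 4.96, 5.82, 4.21 and 5.22 CPM in control. The groups overlapped in part, with scn_glauc_154 below every control library. C1s1, a protease of the C1 complex, had 4 to 19 counts per library in advanced glaucoma and 2 to 10 in control (log2 fold change 0.43, SE 0.618). C1ra, its partner, had 3 to 4 counts and 1 to 4 counts, and Cfb, the protease of the alternative route, had 2 to 8 counts and 3 to 17 counts, and neither was tested.

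The membrane inhibitors of complement did not pass, and their intervals leave out a change of the size estimated for C4b. Cd59a, which blocks the membrane attack complex, had 47.7, 48.9 and 55.9 CPM in advanced glaucoma, against 58.1, 63.1, 61.5 and 51.3 CPM in control (log2 fold change -0.20 with a 95% interval of -0.46 to 0.062; edgeR adjusted p = 0.762). Cd55, which speeds the decay of the convertases, had 4.95 to 8.03 CPM in advanced glaucoma and 6.12 to 9.005 CPM in control (log2 fold change -0.24, 95% interval -0.90 to 0.42). Both had overlapping groups.

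**Figure D3:**
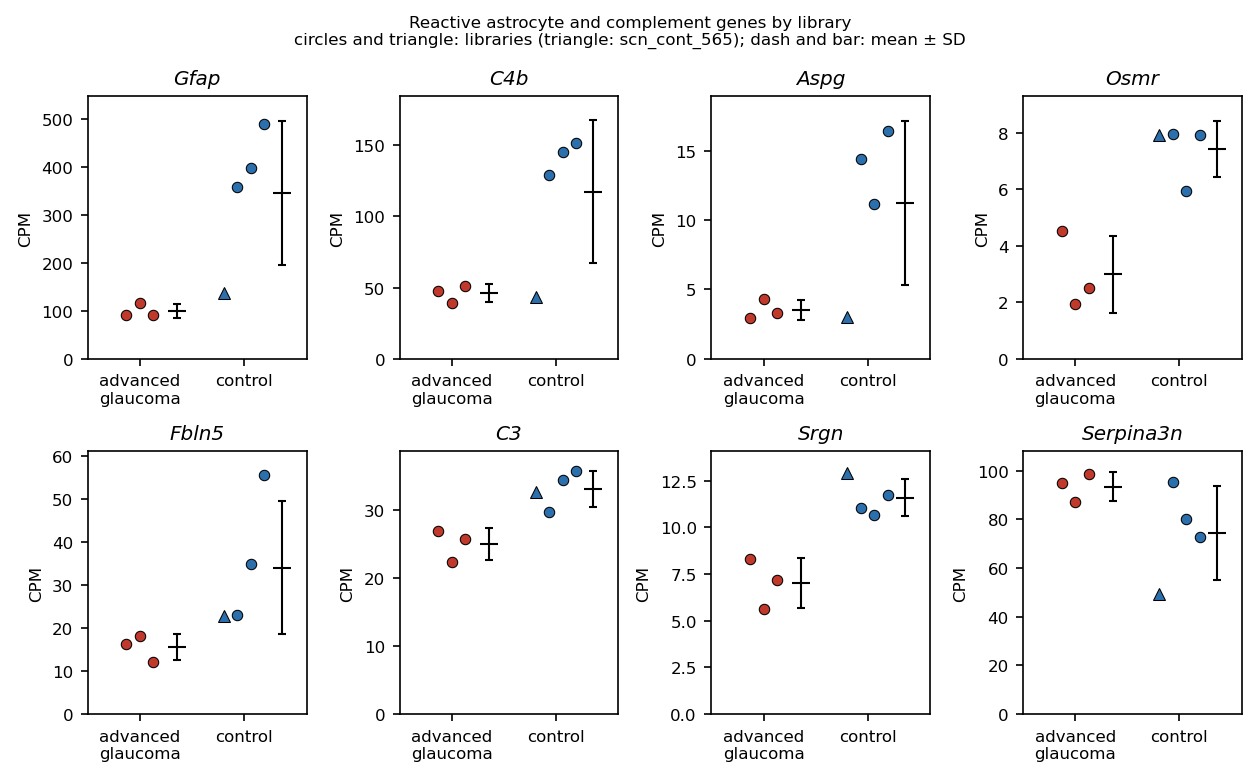
CPM (y axes) of 8 members in each advanced glaucoma (left) and control (right) library, with mean ± SD. The triangle, scn_cont_565, sits at the level of the advanced glaucoma libraries for C4b and Aspg, near them for Gfap, and with the other control libraries for Osmr, C3 and Srgn.

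All 6 genes from published lists of astrocyte states after systemic inflammation and after ischaemia had negative log2 fold changes, as did 51.5% of all genes tested. By edgeR 0 of them passed, and 4 were lower at an unadjusted p under 0.05, as were 4.15% of all genes tested. Fbln5, an elastic fibre protein from the inflammation list (chromosome 12, 101746565 to 101819055, minus strand, mm10), had 16.4, 18.1 and 12.2 CPM in advanced glaucoma, against 22.8, 22.96, 34.9 and 55.5 CPM in control. The groups did not overlap, and scn_cont_570 was far above the other control libraries. Its log2 fold change was -1.17 (SE 0.2996, adjusted p = 0.184 by edgeR). Fbln5 passed with no filter on low counts (adjusted p = 1.93e-06), with DESeq2 (0.0151) and without scn_cont_567 (0.0267), in a range of 1.93e-06 to 0.541 over 13 alternatives.

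Srgn, the proteoglycan serglycin, which vessels and immune cells also make, had 8.28, 5.60 and 7.20 CPM in advanced glaucoma, against 12.9, 11.02, 10.7 and 11.7 CPM in control. The groups did not overlap and scn_cont_565 was the highest library (log2 fold change -0.71, SE 0.273, adjusted p = 0.428 by edgeR). Gbp2, an interferon-induced GTPase, had 7.48 to 11.2 CPM in advanced glaucoma and 8.94 to 19.9 CPM in control, and Ggta1, a galactosyltransferase, had at most 4.93 CPM in advanced glaucoma and 3.47 to 7.56 CPM in control. Both overlapped between the groups, with log2 fold changes of -0.53 and -0.32.

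Emp1 and Tm4sf1, membrane proteins from the ischaemia list, are also known from vessels. Emp1 had 6.31, 2.59 and 3.05 CPM in advanced glaucoma, against 6.95, 5.82, 9.42 and 7.56 CPM in control, with scn_glauc_152 among the control libraries. Tm4sf1 had 26.0, 19.6 and 38.8 CPM in advanced glaucoma, against 47.2, 53.3, 29.0 and 39.8 CPM in control, with an overlap through scn_glauc_154 and scn_cont_568. Their log2 fold changes were -0.89 (SE 0.371) and -0.59 (SE 0.226), with adjusted p of 0.498 and 0.450 by edgeR. Of 19 endothelial and mural markers, 18 were tested and 1 passed and was lower (Vtn), as were 0.378% of all genes tested. The summed level of the 19 markers was 401 to 409 CPM in advanced glaucoma and 399 to 527 CPM in control. No marker was at 0. The part of vessel cells in Srgn, Emp1 and Tm4sf1 was not tested.

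None of the 5 cytokine receptor and STAT3 genes passed by edgeR, where 0.471% of all genes tested did. At an unadjusted p under 0.05 by edgeR there were 0 of the 5, where 8.2% of all genes tested lay. For so few genes, these counts were near the background. Stat3, the transcription factor downstream of IL-6 family cytokines, had 99.3, 68.5 and 120 CPM in advanced glaucoma, against 67.0, 107, 73.4 and 68.1 CPM in control (log2 fold change 0.28 with a 95% interval of -0.21 to 0.77; edgeR adjusted p = 0.845). It overlaps Stat5a on the opposite strand, which had 92 counts in all libraries against 2416 for Stat3. Il6st, the signalling subunit shared by these receptors, had 56.9 to 68.1 CPM in advanced glaucoma and 50.8 to 71.9 CPM in control, and its 95% interval was -0.29 to 0.25. Socs3, the feedback inhibitor that STAT3 induces, had 3.74, 0.646 and 3.32 CPM in advanced glaucoma, against 1.49, 8.26, 5.205 and 0.540 CPM in control. Its spread within each group exceeded the difference between them (log2 fold change -0.58, SE 0.761). Tnfrsf1a, a TNF receptor, had 10.8 to 17.4 CPM in advanced glaucoma and 12.4 to 14.4 CPM in control, and Tnfrsf12a, the TWEAK receptor, had 2.59 to 6.37 and 1.44 to 4.90 CPM. Their log2 fold changes of -0.055 and 0.24 had intervals that include 0.

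Other genes of these pathways gave at most 1 call per list, where 0.378% of all genes tested passed as lower and 0.0927% as higher. The summed level of 38 further complement genes and regulators was 1796 to 1807 CPM in advanced glaucoma and 1942 to 2274 CPM in control. Of these 38 genes, 24 were tested, 13 lay below 0 in log2 fold change, 1 passed and was lower, and 0 were higher. It was Vtn, vitronectin, an inhibitor of the terminal complex that mural cells make, at 51.0 ± 1.46 CPM in advanced glaucoma and 73.9 ± 7.47 CPM in control (SD, n = 3 and n = 4; log2 fold change -0.52, adjusted p = 0.0420 by edgeR, 0.0160 to 0.206 over 13 alternatives). Vtn lost its call with plain library size (0.0511), with limma-voom weights (0.0517) and, by edgeR, without each library in turn except scn_cont_567 (0.0808 to 0.206). The C1q genes, made by microglia, are in that list, and C1qa was at 36.8 ± 0.787 CPM in advanced glaucoma and 40.1 ± 9.37 CPM in control.

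Of 36 further genes of reactive astrocyte lists, 27 were tested, 1 passed and was lower, as were 0.378% of all genes tested, and 0 were higher. It was Id3, an inhibitor of helix-loop-helix transcription factors in glia and vessels, at 19.96 ± 2.74 CPM in advanced glaucoma and 39.2 ± 6.47 CPM in control (log2 fold change -0.96, SE 0.175, adjusted p = 0.00673 by edgeR). Id3 passed under each of 13 alternatives (1.04e-04 to 0.0351). Of 44 genes of IL-6 family, TNF and JAK-STAT signalling, 33 were tested and 0 passed by edgeR. At an unadjusted p under 0.05, where 4.15% of all genes tested were lower and 4.05% higher, lay 2 lower and 2 higher genes of this list. Among them was Myd88, an adaptor of innate immune receptors, at 2.93 ± 0.124 CPM in advanced glaucoma and 5.77 ± 1.52 CPM in control (SD, n = 3 and n = 4; edgeR adjusted p = 0.510). The cytokine genes Il6 and Cntf had 0 counts in every library.

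Single libraries differed in how they ranked. Among the 27 members tested, scn_cont_565 was the lowest control library for 12, where it was lowest for 31.2% of all genes tested. It lay within the range of the advanced glaucoma libraries for 11 members (37.2% of all genes tested), as did scn_cont_567 for 12 (47.1%), scn_cont_568 for 12 (48.5%) and scn_cont_570 for 10 (47.2%), so these counts were near the background. The members within that range for scn_cont_565 included Aspg, C4b, Cp and Socs3, which were in the range for no other control library. Library scn_glauc_153 was the lowest of all 7 libraries for 10 members, where it was lowest for 12.8% of all genes tested, and scn_cont_567 was the highest of all 7 for 9 members (13.9% of all genes), scn_glauc_154 for 7 (14.8%) and scn_cont_570 for 7 (13%). Within control, scn_cont_567 was the highest library for 15 members, against 24.7% of all genes tested.

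**Figure D4:**
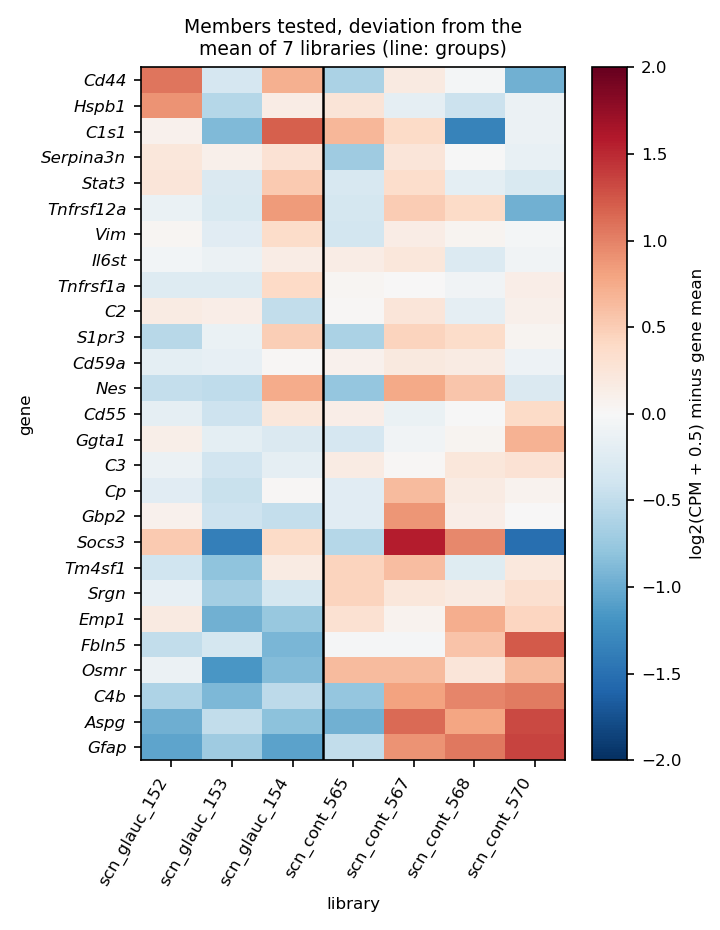
Deviation of log2(CPM + 0.5) from the mean of the 7 libraries (colour) for the 27 members tested (rows, ordered by log2 fold change) in each library (columns, advanced glaucoma left of the line and control right). In the Gfap, Aspg and C4b rows scn_cont_565 is below the gene's mean, as the advanced glaucoma libraries are.

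Without scn_cont_565, 3 of 26 members tested were called, Gfap, C4b and Aspg, all lower, where 0.528% of all genes tested passed. It was the lowest control library for each of these 3, so leaving it out had to raise their control means. In that fit the libraries of 8 members did not overlap, all lower in advanced glaucoma, where 6.66% of all genes tested did so. Leaving out scn_cont_567 gave 1 call, Fbln5, which was lower, as were 0.401% of all genes. Leaving out scn_glauc_152, scn_glauc_153, scn_glauc_154, scn_cont_568 or scn_cont_570 gave 0 calls by edgeR, where 0.302%, 0.484%, 0.166%, 0.273% and 0.205% of all genes were called lower, and 7 to 9 members had an unadjusted p under 0.05, as did 6.06% to 8.05% of all genes. With all libraries, DESeq2 called 3 members lower (Gfap, Aspg and Fbln5; 0.469% of all genes), limma-voom weights 2 (Gfap and C4b; 0.442%), no filter on low counts 2 (Aspg and Fbln5; 0.434%), plain library size 0 (0.364%) and a mean of at least 10 CPM 0 (0.482%). The estimates moved less than the calls: over the 7 fits the log2 fold change ran from -2.06 to -1.59 for Gfap, from -1.63 to -1.24 for C4b and from -1.98 to -1.48 for Aspg.

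**Figure D5:**
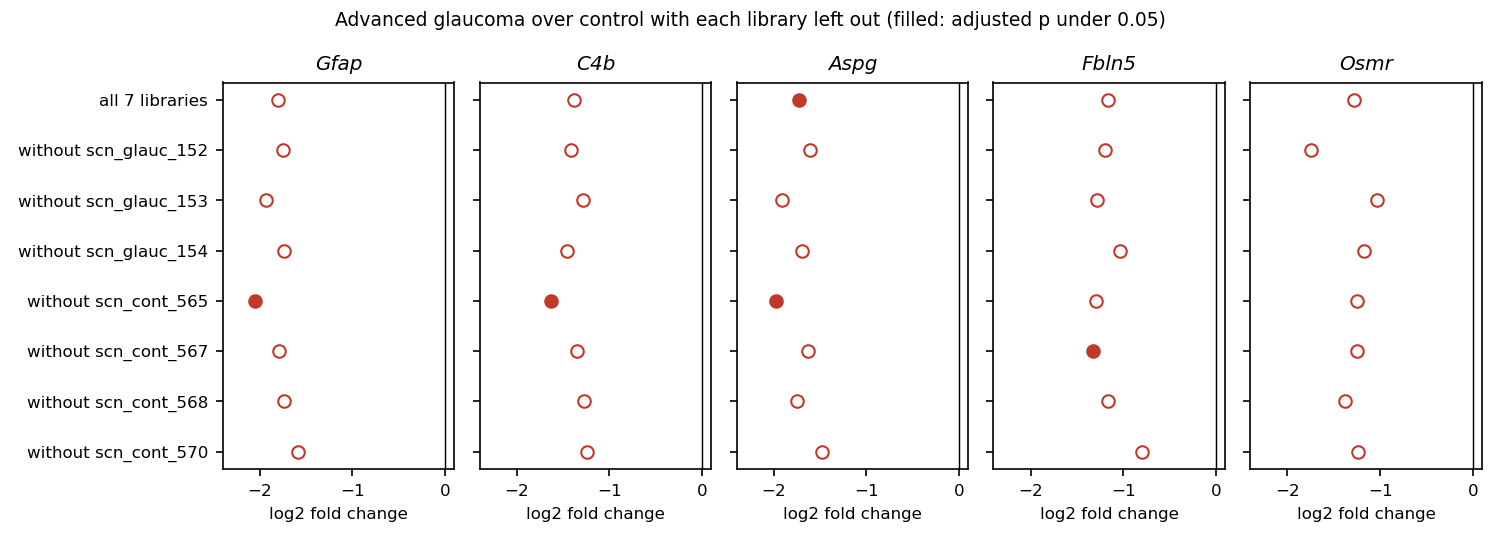
Log2 fold change of advanced glaucoma over control (x axes) for 5 members with all 7 libraries and with each library left out (y axis), where filled points passed at an adjusted p under 0.05 by edgeR. Gfap and C4b are filled only without scn_cont_565, and every estimate is below 0.

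Astrocyte markers outside the reactive set were also lower in sum. The summed level of 18 markers was 5359 to 5679 CPM in advanced glaucoma and 5915 to 6056 CPM in control, without overlap, and the ratio of the means was 0.924. Of the 18, 1 passed and was lower, the water channel gene Aqp4, where 0.378% of all genes tested passed as lower. At an unadjusted p under 0.05 by edgeR 6 were lower and 0 higher, where 4.15% and 4.05% of all genes tested lay. In log2 fold change 14 of the 18 lay below 0 (median -0.15), as did 51.5% of all genes tested. All 18 were detected in each group and none was at 0. Set against that sum, Gfap was at 1.66, 2.06 and 1.70 CPM per 100 CPM of astrocyte markers in advanced glaucoma, against 2.298, 5.96, 6.75 and 8.11 in control. C4b was at 0.863, 0.690 and 0.956 per 100 in advanced glaucoma, against 0.727, 2.15, 2.46 and 2.504 in control. On this scale the mean in advanced glaucoma over that in control was 0.312 for Gfap, 0.427 for C4b, 1.18 for Vim and 1.36 for Serpina3n. The part of astrocyte number in these values was not tested.

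Among all genes tested, 0.378% passed as lower by edgeR and 4.15% were lower at an unadjusted p under 0.05. Of 18 microglia and macrophage markers, 17 were tested and 0 passed by edgeR, with 2 lower at an unadjusted p under 0.05. Their summed level was 586 to 646 CPM in advanced glaucoma and 624 to 748 CPM in control, with scn_cont_565 the lowest control library. Of 14 meningeal fibroblast markers, 13 were tested and 1 passed and was lower, with summed levels of 499 to 1136 CPM in advanced glaucoma and 1091 to 1507 CPM in control. Of 16 oligodendrocyte markers 0 passed by edgeR, with 9 lower at an unadjusted p under 0.05. In log2 fold change 15 of the 16 lay below 0 (median -0.47), as did 51.5% of all genes tested. The summed level of the 16 markers was 2386 to 4940 CPM in advanced glaucoma and 4333 to 5518 CPM in control. The part of these cells in the levels of Gfap, C4b, Aspg and Fbln5 was not tested.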

How the data were processed

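Per the labels' protocols, RNA of SCN microdissections was made into barcoded 3′ libraries with the MERCURIUS kit (BRB-seq). The deposited table holds raw counts per Ensembl gene. The submitters' processing notes list build mm10 and the tools STAR, featureCounts, HTSeq and DESeq2. Tool roles and settings, strand and any collapse of molecular identifiers are not given in the sources used here, so counts may be reads and not molecules. All 7 columns were used, and 55141 of 55487 identifiers had a symbol.

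The test was edgeR 4.0.16 in R 4.3.3: filterByExpr by group, TMM scaling, robust quasi-likelihood fit with the group as the only term, and Benjamini-Hochberg adjustment over 14020 genes at 0.05. The SE was derived from the estimate and its F statistic. The fit was tested on simulated data. The members and lists were chosen with earlier results of these data known. Named genes are all 33 members, and from each of the 3 pathway lists up to 4 genes that passed or the 2 with the smallest p (1 is not reported here), while Vip, Aqp4, C1qa, Osm, Il6, Cntf and the tanycyte genes were named after their values were seen. Alternatives were RLE factors, plain library size, no filter, a mean of at least 10 CPM, DESeq2 1.42.0, limma-voom (limma 3.58.1) with sample weights, and each library left out in turn. No library pair agreed within counting noise (chi-square over its degrees of freedom 4.38 to 10.2 within groups). Positions are from GENCODE on GRCm38, the assembly of mm10, and promoters from RefSeq.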

Additional observations from a re-analysis of the deposited data

Results flagged for a closer look

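Control values of each of the 33 members were checked for a library that stood far from the other 3 (the gap to the nearest library over the whole range, against Dixon's 95% critical value), and 2 were found. Chance gives this in about 5% of groups. Osmr was at 5.95 CPM in scn_cont_568, below the other control libraries, which lay within 7.92 to 7.96 CPM, and the advanced glaucoma libraries lay lower still. Stat3 was at 107 CPM in scn_cont_567, above the other control libraries at 67.0 to 73.4 CPM and within the range of the advanced glaucoma libraries.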

How the results depend on the processing

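No paired analysis was possible because the groups share no replicate number. The count of genes called was 66 with all libraries, 202 with no filter on low counts and 28 to 93 with a library left out, lowest without scn_glauc_154 and at 33 without scn_cont_570. The count of members called was 1, against 0 with plain library size and with a mean of at least 10 CPM, 2 with no filter and with limma-voom weights, 3 with DESeq2 and 0 to 3 with a library left out. Of all genes tested, 0.471% were called with all libraries, 0.464% with plain library size and 0.59% with a mean of at least 10 CPM. The share was 0.811% with no filter, 0.628% with limma-voom weights, 0.637% with DESeq2 and 0.193% to 0.653% with a library left out. Members at an unadjusted p under 0.05 numbered 11, against 5 with a mean of at least 10 CPM, where 14 members were tested, and 7 to 11 with a library left out. Of all genes tested, 8.2% lay there with all libraries, 6.06% to 8.76% with a library left out and 8.65% with a mean of at least 10 CPM. Members without overlap numbered 5, against 3 with that filter and 6 to 10 with a library left out, at 8 without scn_cont_565 and 10 without scn_glauc_154. The share of all genes tested without overlap was 8.02% with all libraries and 8.55% with a mean of at least 10 CPM. It was 13.6% without scn_cont_565, 13.9% without scn_glauc_154 and 12.3% to 16.7% over the 7 fits with a library left out. RLE factors changed none of these counts by more than 1.5 times. The direction held for 17 of the 27 members tested under all alternatives that gave an adjusted p. It turned for 10, most of them with estimates near 0 or few counts. Hspb1, at 0.43 with 27 to 108 counts per library, turned only without scn_glauc_152, its highest library. With a library left out, the log2 fold changes of the 10 ran from -0.056 to 0.24 for Vim, -0.77 to 0.031 for Nes, -0.50 to 0.052 for S1pr3, -0.063 to 0.75 for Hspb1, -0.19 to 0.11 for C2, -0.36 to 0.87 for C1s1, -1.03 to 0.082 for Socs3, -0.11 to 0.060 for Il6st, -0.30 to 0.063 for Tnfrsf1a and -0.24 to 0.49 for Tnfrsf12a. Il6st was also at 0.032 with limma-voom weights. The cause was not tested. Depth limits Lcn2, Steap4, Timp1, Cxcl10, C1ra and Cfb, which did not pass the filter on low counts.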
